A study of Homo sapiens with 36 samples.

Results

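CHFR and RNF8 are the RING-type ubiquitin ligases of human cells that also carry an FHA domain, a fold that binds phosphorylated threonines. They were chosen by gene name, and both were found among the 36601 genes of a bulk count table (2 of 36601). The choice was made with values in view, because CHFR was known to be far higher in clone 5 than in clone 4. The difference between the clones is therefore described here for both genes and not tested. The 4 groups hold 3 libraries each: HyT36-treated clone 5, its DMSO control, HyT36-treated clone 4, and its DMSO control. All are HEK 293 cells, an established line derived from human embryonic kidney, taken from a tagged library in which an endogenous protein carries HaloTag. HyT36 is a hydrophobic ligand that attaches covalently to HaloTag and makes the tagged protein look misfolded. It was used at 25 µM, and DMSO is its vehicle. Each of the clones is a single clonal line, no untagged bulk cells were analysed here, and so a difference between clones cannot be told apart from other differences between clonal lines. Exposures of 2 h and of 12 h appear in the protocols. Neither the exposure of the bulk libraries nor the protein tagged in each clone is stated in the sources used here. Nothing in the labels says that the libraries of a group came from separate cultures, so p-values measure the spread between these libraries, which may be technical.

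CHFR, checkpoint with forkhead and RING finger domains, delays entry into mitosis when microtubules are poisoned, and the mitotic kinases Aurora A (AURKA) and PLK1 are known substrates. Its promoter holds a CpG island that is methylated in many tumours and tumour cell lines, where the gene is then silent. RNF8 acts at DNA double-strand breaks: its FHA domain binds phosphorylated MDC1, its RING domain works with the ubiquitin-conjugating enzyme UBE2N, and the ubiquitin it adds to chromatin brings in RNF168, then TP53BP1 and the BRCA1-A complex. These sentences are background and not results of these data.

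The promoter sequences are shown because the genes differ most in how their transcripts split between the clones, and CG pairs are the bases at which a human promoter can be methylated. They come from RefSeq on GRCh38.p14, run 5′ to 3′ on the strand of the gene, and cover 250 bases before to 50 bases after the start. CG pairs are in capitals. The CHFR window is chr12:132887569-132887868 on the minus strand, at the 5′ end of the gene (ENSG00000072609, chr12:132832356-132887618). The RNF8 window is chr6:37353733-37354032 on the plus strand, at the 5′ end of the gene (ENSG00000112130, chr6:37353983-37394734). The reference table holds 2 windows for CHFR, of which 1 is printed, and 1 for RNF8.
CHFR: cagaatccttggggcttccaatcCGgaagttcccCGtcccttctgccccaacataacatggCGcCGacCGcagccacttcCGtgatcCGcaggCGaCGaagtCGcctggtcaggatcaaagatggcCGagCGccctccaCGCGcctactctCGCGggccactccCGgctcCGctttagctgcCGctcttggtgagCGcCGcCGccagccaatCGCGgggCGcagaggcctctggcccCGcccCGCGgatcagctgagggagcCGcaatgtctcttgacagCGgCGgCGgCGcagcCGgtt
RNF8: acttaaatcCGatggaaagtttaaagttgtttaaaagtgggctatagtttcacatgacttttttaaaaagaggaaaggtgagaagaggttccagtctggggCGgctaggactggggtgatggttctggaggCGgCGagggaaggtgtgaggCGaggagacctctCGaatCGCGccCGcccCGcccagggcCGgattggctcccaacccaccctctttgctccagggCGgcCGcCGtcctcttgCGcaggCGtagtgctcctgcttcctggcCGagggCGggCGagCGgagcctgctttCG
CHFR had 34 CG pairs in 300 bases and 68.0% G or C, and 15.6% of 35116 RefSeq promoter windows of this length held at least as many CG pairs. RNF8 had 21 CG pairs and 59.0% G or C, and 39.5% of the windows held at least as many. The median over all windows was 14 CG pairs. The count was of the letters CG, which read the same on both strands. DNA methylation was not measured in these libraries, so the letters say nothing of its state in either clone.

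The libraries held 22853946 to 28635511 reads on genes. Levels are given as CPM, counts scaled to a common number of reads on genes, after TMM scaling, which corrects for differences in composition between libraries. The HEK293 markers VIM, LIN28B and PAX2 were present in all 12 libraries, while NEFL, NEFM and DLK1 were at or near 0. LIN28A was near 0 in clone 5, as low as 0.0364 CPM, and at 18.7 to 22.6 CPM in clone 4. The libraries stood apart in transcripts of epithelial carcinoma lines. The summed level of 18 such markers was 75.5 to 129 CPM in 6 libraries and 17.1 to 26.6 CPM in the other 6, and KRT19, a keratin of simple epithelia, was at 32.2 to 69.9 CPM and 0.0419 to 0.235 CPM in the same sets. The libraries with many of these transcripts were all 3 of clone 5 with DMSO, replicates 2 and 3 of clone 4 with HyT36, and replicate 1 of clone 4 with DMSO. In clone 5 the split coincides with HyT36 and DMSO, so the ligand and whatever brought these transcripts cannot be told apart there. GRHL2 and KRT23 were at 0 in all 6 libraries with few. Guide reads gave a check of the clone labels: the guide named for IGF1R had 2623 to 3806 reads in the clone 5 libraries and 5 to 13 in the clone 4 libraries, and the guide named for HDAC2 had 2 to 18 reads in clone 5 and 2318 to 3504 in clone 4. No guide feature in the table is named for CHFR or RNF8.

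CHFR transcripts were abundant in clone 5 and close to absent in clone 4, with either treatment. In clone 5 with HyT36 CHFR had 40.8, 35.4 and 39.4 CPM, a mean of 38.5 ± 2.78 CPM (SD, n = 3), from 2719 reads. In clone 5 with DMSO it had 34.9, 38.4 and 42.4 CPM, a mean of 38.5 ± 3.75 CPM (SD, n = 3), from 3043 reads. In clone 4 with HyT36 it had 0.144, 0.333 and 0.423 CPM, from 4, 9 and 11 reads. In clone 4 with DMSO it had 0.719, 0.196 and 0.291 CPM, from 17, 5 and 7 reads. The lowest clone 5 library lay far above the highest clone 4 library, and the treatments overlapped within each clone. In all, the 6 clone 5 libraries held 5762 CHFR reads and the 6 clone 4 libraries held 53. CHFR passed the filter on low counts through the clone 5 libraries.

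By size, the clone difference of CHFR was among the largest upward ones in the table. The fitted log2 difference, clone 5 minus clone 4, was 6.99 ± 0.20 (SE) with HyT36 and 6.59 ± 0.20 (SE) with DMSO, which ranked 13 and 22 of 14892 tested genes. The ratio of reads per effective library was 130 with HyT36 (exact binomial 95% interval 87.0 to 203) and 97.6 with DMSO (67.8 to 146). These intervals cover counting error only. Without replicate 1 of clone 4 with DMSO, the library with the most CHFR reads in that clone, the log2 difference with DMSO was 7.28. As background, 56.0% of the tested genes were called different between the clones with HyT36 and 55.5% with DMSO at an adjusted p of 0.05 in edgeR's quasi-likelihood test.

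**Figure D1:**
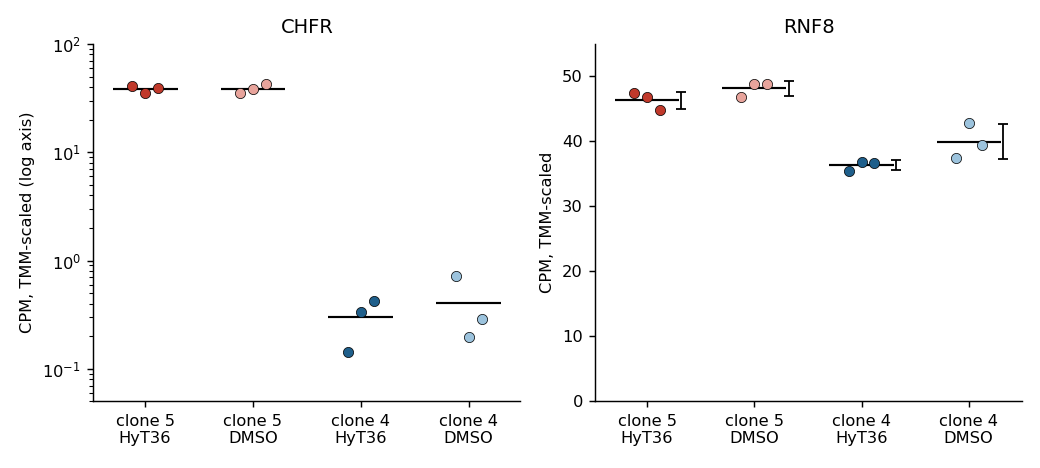
Scaled CPM of CHFR (left, log axis) and RNF8 (right, linear axis from 0) in each of the 12 libraries by group; lines are group means and the bars at right are SDs (n = 3). CHFR sits between 34.9 and 42.4 CPM in the clone 5 libraries and between 0.144 and 0.719 CPM in the clone 4 libraries, while RNF8 spans 44.9 to 48.9 CPM in clone 5 and 35.5 to 42.9 CPM in clone 4.

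The few CHFR reads of clone 4 were more numerous in the libraries with many epithelial transcripts. The 3 clone 4 libraries with many such transcripts held 37 CHFR reads, at 0.333 to 0.719 CPM. The 3 with few held 16 reads, at 0.144 to 0.291 CPM. The ratio of reads per effective library was 2.33 (exact binomial 95% interval 1.27 to 4.49, counting error only). Of the 37 reads, 17 came from replicate 1 of clone 4 with DMSO. The closest libraries of the sets held 9 and 7 reads, and how many other genes split in this way was not counted. Of the 18 epithelial markers, 15 were higher in each of the 3 libraries with many such transcripts than in each of the 3 with few. The libraries were split by the sum of these same markers, so this count describes the split and does not test it. The part of these transcripts in the CHFR reads was not tested. Against the clone 4 library with HyT36 that held few of them, the clone 5 libraries with HyT36 had a CHFR ratio of 186 (114 to 326, counting error only), which rests on 4 reads of 1 clone 4 library. In these bulk libraries, fewer cells with CHFR transcripts and less CHFR RNA per cell cannot be told apart.

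**Figure D2:**
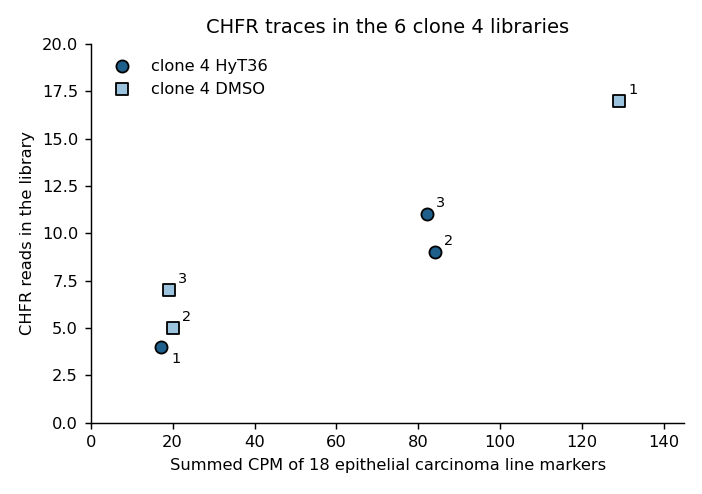
CHFR reads (vertical axis) against the summed CPM of 18 epithelial carcinoma line markers (horizontal axis) in the 6 clone 4 libraries, with HyT36 (circles) and DMSO (squares), numbered by replicate. The 3 libraries with 82.2 to 129 CPM of markers hold 9 to 17 CHFR reads, and the 3 with 17.1 to 20 CPM hold 4 to 7.

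With the groups alone in the fit, no response of CHFR to HyT36 was called in either clone. In clone 5 the response to HyT36, as log2 fold change over DMSO, was -0.00 ± 0.10 (SE, 95% interval -0.22 to 0.22), with an adjusted p of 1.0 in edgeR's quasi-likelihood test, and the libraries overlapped. In clone 5 HyT36 coincides with few epithelial transcripts, and with these as a covariate the value was 0.95 (edgeR adjusted p = 0.010), in a fit with 1 slope for all libraries. In clone 4 the response was -0.41 ± 0.49 (95% interval -1.46 to 0.64), with an edgeR adjusted p of 0.72. The clone 4 value rests on 24 reads with HyT36 and 29 with DMSO, a read ratio of 0.750 (0.418 to 1.33). Without replicate 1 of clone 4 with DMSO, the clone 4 value was 0.29 (edgeR adjusted p = 0.83), so at this depth a response in clone 4 was not detectable. The difference of the responses, clone 5 minus clone 4, was 0.41 ± 0.51 (95% interval -0.67 to 1.48), with an edgeR adjusted p of 0.91. As background, edgeR called 8.19% of the tested genes for the response in clone 5, 5.57% for the response in clone 4 and 0.302% for the difference.

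RNF8 was transcribed at similar levels in all groups and was modestly higher in clone 5. In clone 5 with HyT36 it had 47.4, 46.8 and 44.9 CPM, a mean of 46.3 ± 1.32 CPM, and in clone 5 with DMSO 46.8, 48.9 and 48.8 CPM, a mean of 48.2 ± 1.16 CPM (SD, n = 3 each). In clone 4 with HyT36 it had 35.5, 36.9 and 36.7 CPM, a mean of 36.4 ± 0.778 CPM, and in clone 4 with DMSO 37.5, 42.9 and 39.5 CPM, a mean of 40.0 ± 2.76 CPM (SD, n = 3 each). Each clone 5 library lay above each clone 4 library. The ratio of mean CPM was 1.27 with HyT36 and 1.2 with DMSO. The log2 differences were 0.35 ± 0.06 and 0.27 ± 0.06 (SE), which ranked 3486 and 4035 of 14892 genes. For comparison, every clone 5 library lay above every clone 4 library for 30.5% of tested genes with HyT36 and for 29.8% with DMSO, and below for 31.7% and 29.9%. From the highest group mean to the lowest, the order was DMSO then HyT36 in clone 5, followed by DMSO then HyT36 in clone 4, and within each clone the treatments did not pass the test.

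In clone 4 the RNF8 response to HyT36 was -0.14 ± 0.06 on the log2 scale (95% interval -0.25 to -0.02). The 3 libraries with HyT36 lay below the 3 with DMSO, which was so for 11.8% of tested genes, and the adjusted p of edgeR's quasi-likelihood test was 0.16. The adjusted p ran from 0.068 to 0.92 over the alternative settings, and without replicate 2 of clone 4 with DMSO the value was -0.08 (edgeR adjusted p = 0.56). In clone 5 the response was -0.06 ± 0.05 (95% interval -0.17 to 0.05, edgeR adjusted p = 0.63). The difference of the responses, clone 5 minus clone 4, was 0.08 ± 0.08 (95% interval -0.08 to 0.24, edgeR adjusted p = 0.87). Log2 fold changes below -0.17 in clone 5 or below -0.25 in clone 4 lie outside these intervals.

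**Figure D3:**
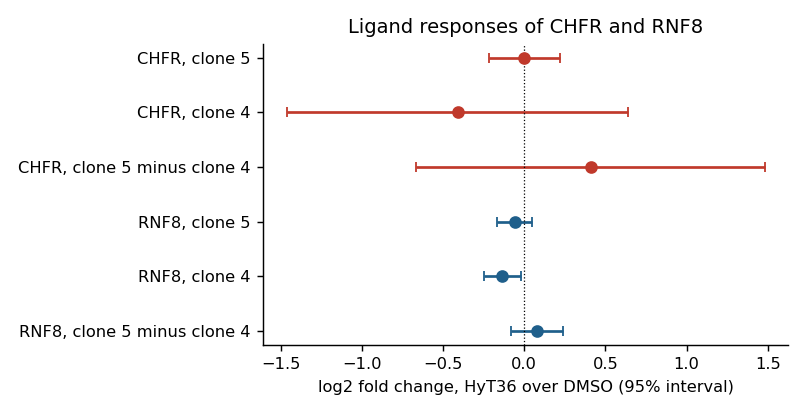
Log2 fold change of CHFR and RNF8 with HyT36 over DMSO in clone 5 and in clone 4, and the difference of the responses (clone 5 minus clone 4), with 95% intervals from the edgeR fit. All intervals include 0 except that of RNF8 in clone 4 (-0.25 to -0.02), and the CHFR interval in clone 4 (-1.46 to 0.64) is the widest of the single responses.

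Of the neighbours of CHFR at the end of the long arm of chromosome 12, all tested ones except LRCOL1 had smaller clone differences, of at most 0.69 on the log2 scale. Of 13 named neighbours in the table within 10 annotated genes on either side, 10 were tested. With HyT36, 4 were higher and 2 lower in clone 5 than in clone 4 (median log2 difference 0.11, against -0.00 over all tested genes, of which 27.0% were called higher and 28.9% lower). With DMSO, 4 were higher and none lower, also in DESeq2 and limma-voom (4 at an unadjusted p under 0.05 in edgeR; median 0.16, against 0.00 over all tested genes, of which 27.3% were called higher and 28.2% lower). LRCOL1 is among the 4 with either treatment. It passed the filter on low counts through the clone 5 libraries, so its call adds no support. The 745 tested genes of chromosome 12 had median log2 differences of -0.00 with HyT36 and 0.00 with DMSO.

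GOLGA3, which encodes a Golgi matrix protein, lies 3275 bp from CHFR on the same strand. It had 49, 48.9 and 56.1 CPM in clone 5 with HyT36, against 35.2, 36.4 and 38.8 CPM in clone 4 with HyT36. With DMSO it had 55.3, 56.3 and 53.6 CPM in clone 5, against 38.9, 38.9 and 39.3 CPM in clone 4. The groups did not overlap, and the log2 differences were 0.48 ± 0.06 and 0.50 ± 0.06 (SE; edgeR adjusted p = 1.8e-09 and 6.9e-10). On the other side ZNF605, a zinc finger gene 30688 bp away, differed by 0.51 ± 0.13 with HyT36 and 0.69 ± 0.13 with DMSO (edgeR adjusted p = 7.0e-04 and 1.8e-05). POLE, the catalytic subunit of DNA polymerase epsilon, and ZNF26 and ZNF140 were not called with either treatment. LRCOL1, 221774 bp away, had 44 reads in clone 5 and 1 in clone 4 with HyT36, a ratio of 50.4 (exact binomial 95% interval 8.59 to 2040), and 33 reads against 1 with DMSO, a ratio of 30.7 (5.14 to 1250). These wide intervals include the ratios of CHFR.

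CHFR-DT is a long noncoding RNA gene on the opposite strand, chr12:132887842-132888571, whose start lies 224 bp from the start of CHFR and inside the promoter window printed above. It had 5 reads in clone 5 with HyT36, 7 in clone 5 with DMSO and 0 in all 6 clone 4 libraries. With the 0 reads of clone 4 replaced by a floor of 3, the ratio over the 6 libraries of each clone was 4.13. The counting error of the 12 clone 5 reads is not in this value, so it is no lower bound. It fell under the filter on low counts and was not tested, and it was singled out after its values were seen. As annotated, CHFR and CHFR-DT do not overlap. RefSeq places 1 small pseudogene within each of CHFR and RNF8, and neither has a row in the count table.

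Around RNF8 on chromosome 6, 9 of 14 named neighbours were tested. With HyT36, 1 was higher and 2 were lower in clone 5 (median log2 difference -0.08), and with DMSO 2 were higher and 3 lower (median -0.06). Over all tested genes 27.0% were called higher and 28.9% lower with HyT36, and 27.3% and 28.2% with DMSO, so these counts do not set the neighbours apart. TBC1D22B, the nearest on one side at 21013 bp, had log2 differences of 0.10 with HyT36 and -0.01 with DMSO, neither of which passed the test. CMTR1, an mRNA cap methyltransferase 29251 bp away on the other side, had 0.08 with HyT36, which did not pass, and 0.16 ± 0.04 with DMSO (edgeR adjusted p = 0.0012). The 722 tested genes of chromosome 6 had median differences of -0.04 and -0.03. RNF8, at 0.35 and 0.27, was thus higher than both of its nearest tested neighbours in the size of its clone difference with either treatment. It lay within the range of all 9 tested neighbours, -0.42 to 1.64 with HyT36 and -0.46 to 1.77 with DMSO. The upper ends are those of ZFAND3-DT, a noncoding RNA gene with few reads (47 in clone 5 and 17 in clone 4 with HyT36).

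**Figure D4:**
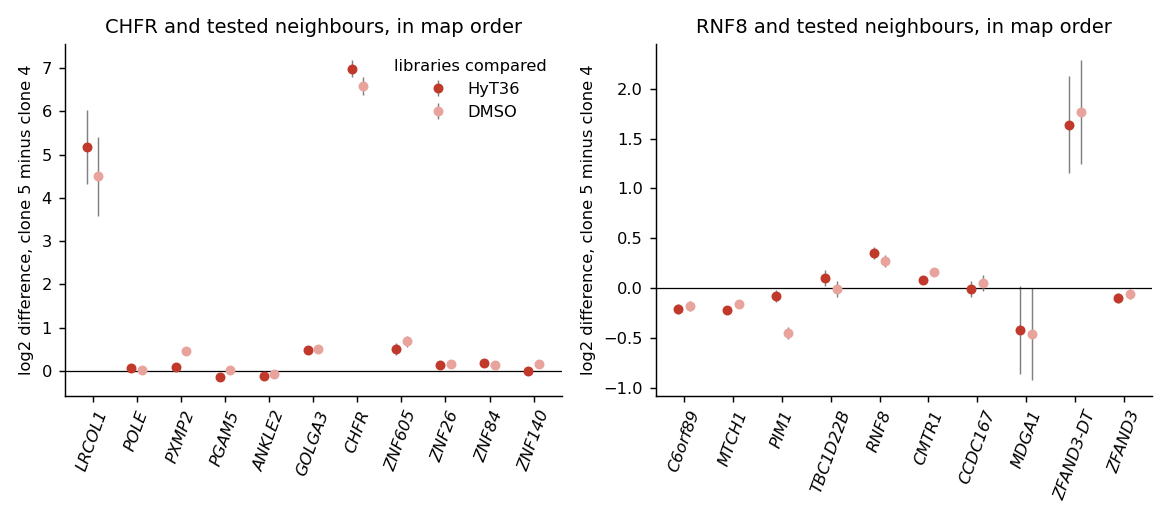
Log2 difference, clone 5 minus clone 4, of CHFR (left) and RNF8 (right) and their tested neighbours in map order, for libraries with HyT36 and with DMSO; bars are SEs and the vertical scales differ. CHFR stands at 6.99 and 6.59 while GOLGA3 beside it stands at 0.48 and 0.50, and RNF8 stands at 0.35 and 0.27.

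The known partners and targets of CHFR, 20 genes other than CHFR itself, included 4 that were higher and 9 lower in clone 5 than in clone 4 with HyT36 (median log2 difference -0.07, against -0.00 over all tested genes), and 2 higher and 8 lower with DMSO (median -0.06, against 0.00). In either direction, 56.0% of all tested genes were called with HyT36 and 55.5% with DMSO, so the counts in either direction do not set the list apart. By direction, 27.0% of all tested genes were higher and 28.9% lower with HyT36, and 27.3% and 28.2% with DMSO. Whether the list leans lower was not tested. AURKA, the kinase that builds the spindle poles, had 137, 133 and 133 CPM in clone 5 with HyT36 and 153, 148 and 156 CPM in clone 5 with DMSO. In clone 4 it had 166, 155 and 155 CPM with HyT36 and 166, 171 and 172 CPM with DMSO. The clone 5 libraries were lower throughout within each treatment, by a log2 difference of -0.24 ± 0.04 with HyT36 and -0.15 ± 0.04 with DMSO (SE; edgeR adjusted p = 1.5e-06 and 8.5e-04). PLK1, which drives mitotic entry, was lower by -0.26 ± 0.05 and -0.23 ± 0.05 (edgeR adjusted p = 4.8e-05 and 1.8e-04). KIF22, the chromokinesin Kid, was lower by -0.24 ± 0.04 and -0.20 ± 0.04, and HLTF, a fork-remodelling ligase, by -0.28 ± 0.04 and -0.27 ± 0.04.

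HDAC2, a histone deacetylase, was the partner with the largest upward difference. It had 395, 400 and 385 CPM in clone 5 with HyT36 and 405, 375 and 402 CPM in clone 5 with DMSO, against 281, 274 and 273 CPM in clone 4 with HyT36 and 260, 281 and 275 CPM in clone 4 with DMSO. The clones did not overlap, and the log2 differences were 0.51 ± 0.04 and 0.53 ± 0.04 (SE; edgeR adjusted p = 5.0e-15 and 1.4e-15). The guide reads in the clone 4 libraries are named for the same gene, and their part in its level was not tested. PARP1, whose poly(ADP-ribose) chains CHFR binds, was higher in clone 5 by 0.25 ± 0.03 with HyT36 and 0.24 ± 0.03 with DMSO (edgeR adjusted p = 5.3e-08 and 1.0e-07). UBE2D3, a ubiquitin-conjugating enzyme, was lower by -0.31 ± 0.04 and -0.29 ± 0.04.

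Of the 22 genes of mitotic entry, 14 were lower and 2 higher in clone 5 with HyT36 and 6 did not pass the test (median log2 difference -0.19, against -0.00 over all tested genes). With DMSO 14 were lower, none higher and 8 did not pass (median -0.14, against 0.00; 0 higher also in DESeq2 and limma-voom, with 16 genes at an unadjusted p under 0.05 in edgeR). Over all tested genes 27.0% were called higher and 28.9% lower with HyT36, and 27.3% and 28.2% with DMSO. Whether the mitotic entry genes lean lower was not tested. TTK, the spindle checkpoint kinase Mps1, had 62.5, 70.1 and 61.7 CPM in clone 5 with HyT36 and 57.2, 59.4 and 63.0 CPM in clone 5 with DMSO, against 89.4, 82.8 and 87.3 CPM in clone 4 with HyT36 and 85.1, 79.6 and 80.0 CPM in clone 4 with DMSO. Its log2 differences were -0.42 ± 0.05 and -0.45 ± 0.05 (edgeR adjusted p = 2.3e-09 and 5.9e-10). CDC25B, a phosphatase that activates CDK1, differed by -0.38 ± 0.05 and -0.39 ± 0.05. The checkpoint kinases BUB1 and BUB1B differed by -0.24 ± 0.04 and -0.19 ± 0.04 with HyT36, and by -0.27 ± 0.04 and -0.29 ± 0.04 with DMSO. This list shares AURKA, PLK1 and MAD2L1 with the list of CHFR partners.

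In response to HyT36, 2 of the 20 partners rose and 1 fell in clone 5 (median log2 fold change 0.03), and 1 rose in clone 4 (median 0.04). Over all tested genes 8.19% were called in clone 5 and 5.57% in clone 4. AURKA fell in clone 5 by a log2 fold change of -0.18 ± 0.04 (edgeR adjusted p = 0.0019). TOPBP1, a replication checkpoint scaffold, rose in clone 5 by 0.19 ± 0.05 (edgeR adjusted p = 0.0062), a call that was lost without replicate 2 with HyT36 (0.060) or replicate 1 with DMSO (0.058). PARP1 rose by 0.12 ± 0.03 in clone 5 (edgeR adjusted p = 0.022) and by 0.11 ± 0.03 in clone 4 (0.046), and these calls were lost under 5 and 14 alternatives, among them leaving out single libraries (highest adjusted p 0.14 and 0.78). Of the 22 mitotic entry genes, 1 rose and 2 fell in clone 5, and 1 fell in clone 4. CDC25A, another CDK1-activating phosphatase, fell in both, by -0.16 ± 0.04 and -0.13 ± 0.04 (edgeR adjusted p = 0.0074 and 0.035), the second of which was lost under 8 alternatives. In clone 5, where HyT36 and few epithelial transcripts coincide, the part of these transcripts in the calls cannot be told apart from that of the ligand.

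Among 37 tested genes of the RNF8 relay at double-strand breaks, 7 rose and none fell in clone 5 with HyT36 (median log2 fold change 0.03, against -0.00 over all tested genes; 11 at an unadjusted p under 0.05 in edgeR). DESeq2 and limma-voom each called 6 higher and 0 lower. Without replicate 1 of clone 5 with DMSO, edgeR called 5 higher and 0 lower. ABRAXAS1 (edgeR adjusted p = 0.048) lost its call under 13 alternatives. In clone 5 HyT36 coincides with few epithelial transcripts. Their part in the clone 5 calls of this and the other lists cannot be told apart from that of the ligand. As background, edgeR called 3.35% of all tested genes higher and 4.83% lower. Higher genes made up 40.9% of these calls, and 55.7% with upper-quartile scaling. In clone 4, 1 of the 37 rose and none fell (median 0.02; 3 at an unadjusted p under 0.05), with the same count in DESeq2 and limma-voom, against a background of 2.21% higher and 3.36% lower. For the difference of the responses, edgeR, DESeq2 and limma-voom called 0 of the 37, and 3 had an unadjusted p under 0.05 in edgeR. The clones are therefore not shown to differ in how this list responded.

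At the top of the relay, MDC1, the scaffold whose phosphorylated form RNF8 binds, had 132, 140 and 135 CPM in clone 5 with HyT36 and 118, 125 and 118 CPM with DMSO. The groups did not overlap, and the log2 fold change was 0.17 ± 0.04 (edgeR adjusted p = 0.0031). In clone 4 MDC1 had 108, 109 and 107 CPM with HyT36 and 105, 106 and 107 CPM with DMSO (0.02 ± 0.04, edgeR adjusted p = 0.83). UBE2N, the ubiquitin-conjugating enzyme that works with RNF8, had log2 fold changes of -0.02 ± 0.04 in both clones. RNF168, the next ligase in the relay, had -0.09 ± 0.05 in clone 5 and 0.00 ± 0.05 in clone 4. Neither passed the test.

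Further down, TP53BP1 (53BP1), which protects broken ends from resection, had 64.7, 64.8 and 59.8 CPM in clone 5 with HyT36 and 47.6, 51.1 and 53.5 CPM with DMSO. It rose by a log2 fold change of 0.31 ± 0.05 (edgeR adjusted p = 2.8e-05). In clone 4 it had 84.3, 88.3 and 87.4 CPM with HyT36 and 77.3, 81.8 and 80.5 CPM with DMSO, a fold change of 0.12 ± 0.05 that did not pass (edgeR adjusted p = 0.15). The difference of these responses was 0.20 ± 0.07 (edgeR adjusted p = 0.34). RIF1, an effector of 53BP1, rose in clone 5 by 0.19 ± 0.04 (edgeR adjusted p = 0.0036), a call that was lost without replicate 2 of clone 5 with HyT36 (0.050). RNF169, a paralogue of RNF168 that competes for the same ubiquitin mark, rose in both clones, by 0.29 ± 0.06 in clone 5 and 0.34 ± 0.07 in clone 4 (edgeR adjusted p = 0.0030 and 7.4e-04; 0.071 in clone 4 with only the 3 libraries that held few epithelial transcripts). It had 33.6, 39.3 and 35.1 CPM in clone 5 with HyT36 against 29.1, 28.6 and 30.9 CPM with DMSO, and 28.5, 29.5 and 29.8 CPM in clone 4 with HyT36 against 23.9, 22.8 and 22.7 CPM with DMSO.

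Between the clones, 7 relay genes were higher and 8 lower in clone 5 with HyT36, and 9 were higher and 11 lower with DMSO (median log2 differences -0.02 and 0.00). Of all tested genes 27.0% were called higher and 28.9% lower with HyT36, and 27.3% and 28.2% with DMSO, so the counts do not set the relay apart. TP53BP1 was lower in clone 5, by -0.46 ± 0.05 with HyT36 and -0.65 ± 0.05 with DMSO (edgeR adjusted p = 8.0e-11 and 6.0e-15). Within the BRCA1-A complex, which binds the chains that RNF8 and UBE2N build, the members went opposite ways. BRCC3, the deubiquitinase, had 97.5, 108 and 99.0 CPM in clone 5 with HyT36 and 105 CPM in each of the clone 5 libraries with DMSO, against 58.5, 54.1 and 53.7 CPM in clone 4 with HyT36 and 62.5, 60.7 and 53.3 CPM in clone 4 with DMSO. Its log2 differences were 0.87 ± 0.05 and 0.84 ± 0.05 (edgeR adjusted p = 1.7e-17 and 4.7e-17). BRCC3 lies on chromosome X, whose 494 tested genes had median log2 differences of 0.93 with HyT36 and 0.91 with DMSO. ABRAXAS1, the scaffold of the complex, was lower by -0.67 ± 0.08 and -0.84 ± 0.08 (edgeR adjusted p = 1.2e-09 and 6.8e-12). RAD50, of the break-sensing MRN complex, was higher by 0.52 ± 0.04 and 0.46 ± 0.04.

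**Figure D5:**
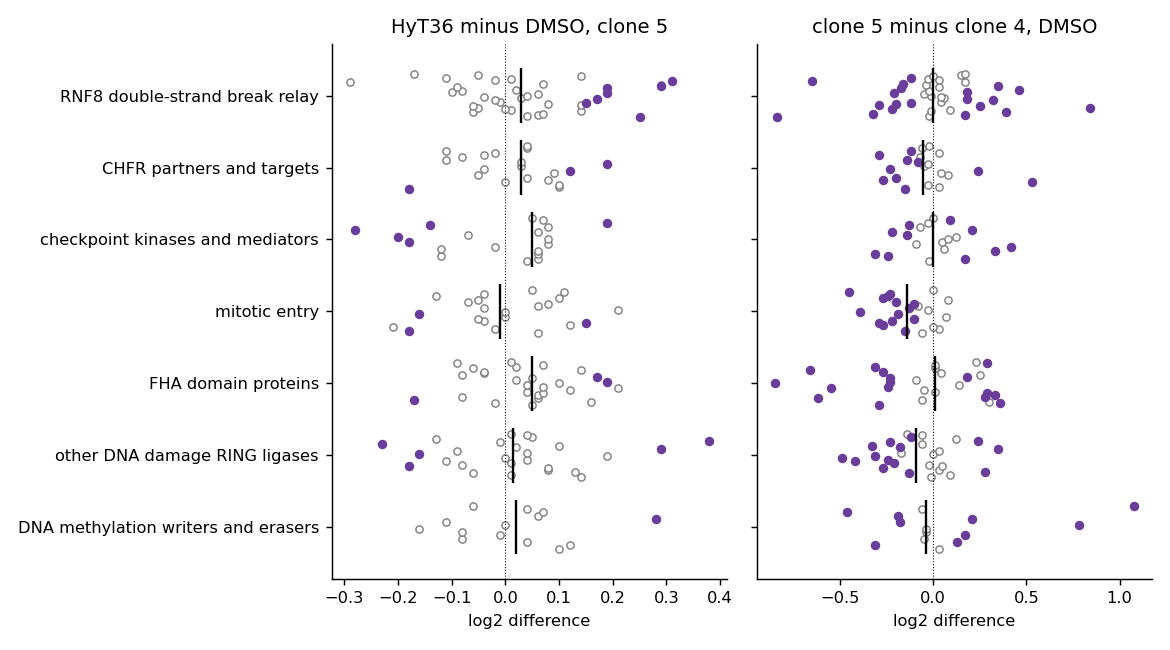
Log2 differences of the tested genes of 7 lists, without CHFR and RNF8: HyT36 minus DMSO in clone 5 (left) and clone 5 minus clone 4 with DMSO (right); filled points passed the edgeR test at an adjusted p of 0.05, open points did not, bars are list medians, and the vertical scatter within a list only separates points. On the left, where HyT36 coincides with few epithelial transcripts, 7 relay genes rose and none fell. On the right 14 mitotic entry genes were lower and none higher.

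The other DNA damage ligases with a RING domain, 26 genes, gave a view of the family to which the pair belongs. With HyT36, 2 rose and 3 fell in clone 5, where 8.19% of all tested genes were called, and 3 rose and 1 fell in clone 4, where 5.57% were. RNF4, which reads SUMO chains, fell in both clones, to 76.6, 74.7 and 78.4 CPM in clone 5 with HyT36, against 86.9, 93.5 and 89.5 CPM with DMSO, and to 80.0, 79.3 and 77.4 CPM in clone 4 with HyT36, against 94.3, 92.9 and 94.4 CPM with DMSO. The log2 fold changes were -0.23 ± 0.04 and -0.25 ± 0.04 (edgeR adjusted p = 2.1e-04 and 7.5e-05; 0.10 in clone 4 with only the libraries that held few epithelial transcripts). Between the clones, 4 were higher and 14 lower in clone 5 with HyT36 (median -0.12), and 3 higher and 11 lower with DMSO (median -0.09). The background was 27.0% higher and 28.9% lower with HyT36, and 27.3% and 28.2% with DMSO. Whether these ligases lean lower was not tested. RING1, a Polycomb ligase, was lower by -0.38 ± 0.05 and -0.49 ± 0.05, and RCHY1, a p53 ligase, by -0.42 ± 0.05 in each (edgeR adjusted p = 7.4e-09 and 6.1e-09).

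The other FHA domain proteins, of which 27 of 28 were tested, included 2 that rose and 1 that fell in clone 5 with HyT36, where 8.19% of all tested genes were called. In clone 4 edgeR and DESeq2 called 0 of the 27 and limma-voom 1 lower, with 5 at an unadjusted p under 0.05 in edgeR. The clone 4 share over all tested genes was 5.57% in edgeR. Between the clones, 8 were higher and 10 lower in clone 5 with HyT36, and 6 higher and 10 lower with DMSO. These counts are near the background of 27.0% higher and 28.9% lower with HyT36, and 27.3% and 28.2% with DMSO. KIF1A, a motor of synaptic vesicle precursors, was lower by -0.76 ± 0.04 and -0.85 ± 0.04 (edgeR adjusted p = 5.8e-21 and 1.5e-22), and CEP170, a centrosomal protein, by -0.51 ± 0.05 and -0.62 ± 0.05. Neither came near the size of the CHFR difference, which was in view when CHFR was chosen, so this comparison is a description only.

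Of the 19 tested checkpoint kinases and mediators, 1 rose and 4 fell in clone 5 with HyT36, and 0 were called in clone 4 by edgeR, DESeq2 or limma-voom (5 at an unadjusted p under 0.05 in edgeR). The background was 3.35% higher and 4.83% lower in clone 5, and 2.21% higher and 3.36% lower in clone 4. MDM2, the ligase of p53, fell by -0.18 ± 0.05 in clone 5 (edgeR adjusted p = 0.0089), a call that was lost without replicate 1 (0.11) or 3 (0.088) of clone 5 with HyT36 or replicate 2 with DMSO (0.058). Between the clones, 4 were higher and 5 lower in clone 5 with HyT36, beside 27.0% and 28.9% of all tested genes, and 5 were higher and 5 lower with DMSO, beside 27.3% and 28.2%. CHEK1 was lower in clone 5 by -0.31 ± 0.05 in each (edgeR adjusted p = 3.2e-07 and 2.4e-07). CHEK2, a kinase with an FHA domain that acts below ATM, was higher by 0.30 ± 0.07 and 0.33 ± 0.07 (edgeR adjusted p = 1.8e-04 and 6.6e-05), and ETAA1, an activator of ATR, by 0.29 ± 0.07 and 0.42 ± 0.07. With HyT36 both calls were lost among libraries with few epithelial transcripts (CHEK2 0.17, edgeR adjusted p = 0.12; ETAA1 0.15, edgeR adjusted p = 0.22).

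Of 14 tested enzymes and readers of DNA methylation, 5 were higher and 6 lower in clone 5 with HyT36 (median -0.07), and 5 higher and 4 lower with DMSO (median -0.04). The background was 27.0% higher and 28.9% lower with HyT36, and 27.3% and 28.2% with DMSO. The maintenance methyltransferase DNMT1 had 322, 308 and 304 CPM in clone 5 with HyT36 and 278, 301 and 288 CPM in clone 5 with DMSO, against 286, 297 and 293 CPM in clone 4 with HyT36 and 277, 288 and 287 CPM in clone 4 with DMSO. Its log2 difference of 0.09 ± 0.04 passed the test with HyT36 (edgeR adjusted p = 0.036), and it was not called with DMSO. ZBTB33 (Kaiso), which binds methylated DNA, was higher in clone 5, by 1.08 ± 0.05 with either treatment (edgeR adjusted p = 1.8e-19 with HyT36 and 2.0e-19 with DMSO). TET3, a methylcytosine oxidase, was lower by -0.37 ± 0.05 and -0.46 ± 0.05. With HyT36, TET1 rose in clone 5 by 0.28 ± 0.04 (edgeR adjusted p = 2.8e-05), and in clone 4 by 0.16 ± 0.05 (0.026, lost under 8 alternatives).

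Of 21 other genes that are often methylated in tumours, 18 were tested, and 1 was higher and 8 lower in clone 5 with HyT36 (median -0.08), and 1 higher and 7 lower with DMSO (median -0.18). The background was 27.0% higher and 28.9% lower with HyT36, and 27.3% and 28.2% with DMSO, and 9 and 10 of the 18 did not pass the test. RARB, a retinoic acid receptor, had 6.36, 7.30 and 6.88 CPM in clone 5 with HyT36 and 6.25, 5.81 and 5.69 CPM in clone 5 with DMSO, against 1.19, 0.999 and 1.31 CPM in clone 4 with HyT36 and 1.23, 1.06 and 1.62 CPM in clone 4 with DMSO. Its log2 differences were 2.55 ± 0.18 and 2.18 ± 0.18 (edgeR adjusted p = 7.5e-16 and 9.1e-14). SFRP1, a secreted Wnt antagonist, went the other way, with 7 and 6 reads in clone 5 and 172 and 124 reads in clone 4, with HyT36 and with DMSO in each clone. TFPI2, a secreted protease inhibitor, had 14 and 13 reads in clone 5, against 230 and 182 in clone 4, each pair being HyT36 then DMSO. SFRP1 and TFPI2 passed the filter on low counts through the clone 4 libraries.

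Among the genes whose levels over the 12 libraries were most like those of CHFR, by Pearson correlation of log2 CPM among tested genes whose mean log2 CPM was 1 or more, were LONRF2 (r = 0.996), MBP (0.996), LAMB2 (0.995) and NEXMIF (0.994). These values describe the split between 2 clones, which all 12 libraries share, and carry no test. LONRF2 averaged 28.6 and 31.5 CPM in clone 5 with HyT36 and with DMSO, against 4.19 and 4.81 CPM in clone 4. For RNF8 the closest were FBLIM1 (r = 0.985), POLR1D (0.983), COA4 (0.981), DHX37 (0.980) and CDCA4 (0.977). POLR1D, a subunit of RNA polymerases I and III, averaged 121 and 125 CPM in clone 5 with HyT36 and with DMSO, against 104 and 110 CPM in clone 4, and so shared with RNF8 both the higher level in clone 5 and slightly lower means with HyT36.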

How the data were processed

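The authors deposited raw counts, not normalized, per the file headers: 36601 genes, 22344 guide features and 4 summary entries in 12 bulk libraries, 3 in each of 4 groups. Of the 36 samples of the series, the other 24 were not analysed here. Per the labels' protocols, bulk RNA was polyA-selected and prepared with a NEBNext Ultra II kit. Cell Ranger 7 and GRCh38 appear in the submitters' processing notes, without saying whether they were used for bulk RNA. Which aligner, which annotation and which strand setting were used is not stated in those sources. Gene counts were 82.4 to 83.9% of all counts, and the summary entries, 16.1 to 17.6%, stayed out of library sizes and tests.

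edgeR 4.0.16 (R 4.3.3) was run with TMM scaling and filterByExpr by group, which left 14892 genes, in 1 model with a mean for each group and robust quasi-likelihood dispersions. Adjusted p-values are two-sided, Benjamini-Hochberg over all genes tested, with a threshold of 0.05. Fold changes use a prior count of 0.125, and each SE is the log2 fold change over the square root of F. The procedure was tested on simulated data. Intervals of read ratios are exact binomial intervals and cover counting error only. The floor of 3 reads covers the counting error of the 0 reads alone. Replicate libraries differed by more than sampling noise (chi-square per degree of freedom 1.93 to 8.43). Coordinates and promoters are those of RefSeq, matched by symbol. Of the gene IDs, 36366 matched the symbol table.

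The members, lists and tests were chosen with earlier results of these data known. Both members are named in every comparison, and of each list up to 4 called genes with the smallest p, the tested neighbours within 10 genes on each side, and the 5 genes most like each member; some genes that this rule picks are not reported here. PLK1, AURKA and KIF22 between the clones, CDC25A, UBE2N, RNF168 and DNMT1, and MDC1 and TP53BP1 where they were not called, were added for their role after their values were seen. Comparisons between clones share libraries with the ligand responses, as the responses share them with their difference. Alternatives were other scalings, DESeq2 1.42.0, limma-voom (limma 3.58.1), other filters, a replicate block, an epithelial covariate, subsets of libraries, and each library left out.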

Additional observations from a re-analysis of the deposited data

Results flagged for a closer look

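PIM1, a kinase gene 178555 bp from RNF8, was picked out because its HyT36 response differed between the clones. The log2 response of clone 5 minus that of clone 4 was 0.38 ± 0.08 (edgeR adjusted p = 0.027, 1 of 45 genes called for this difference out of 14892). It had 35.4, 34.9 and 36.7 CPM in clone 5 with HyT36 and 33.5, 31.9 and 30.2 CPM in clone 5 with DMSO, so all 3 libraries with HyT36 were higher. In clone 4 it had 38.2, 35.7 and 38.9 CPM with HyT36 and 41.1, 46.3 and 43.3 CPM with DMSO, so all 3 libraries with HyT36 were lower. The adjusted p ran from 0.0032 to 0.15 over the alternatives, and the call was lost in 10 of them, among them limma-voom (0.095) and non-robust dispersions (0.098). In clone 5 the libraries with DMSO are those with many epithelial transcripts, and with these as a covariate the difference was 0.30 (adjusted p = 0.12).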

How the results depend on the processing

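Among 175 results of single genes with a call, 3866 alternative values were computed: 3646 kept direction and call, 220 kept direction and lost the call, and 0 changed sign. CHFR and RNF8 were higher in clone 5 under each alternative, with either treatment. For CHFR the log2 difference with DMSO was 6.25 to 7.28 with a library left out and 5.74 among libraries with many epithelial transcripts. With HyT36 it was 6.65 to 7.32 with a library left out, 7.61 with the epithelial covariate and 8.02 among libraries with few such transcripts. For RNF8 it was 0.37 with DMSO among libraries with many and 0.39 with HyT36 among those with few. The CHFR response in clone 5 became 0.95 (edgeR adjusted p = 0.010) with the epithelial covariate. That fit has 1 slope for all libraries, and the covariate coincides with the ligand in clone 5, so this value rests largely on the slope among the few CHFR reads of clone 4.

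Genes called for the clone 4 response, 830, became 287 with few-epithelial libraries only and 409 to 851 with a library left out. Those for the clone 5 response, 1219, became 755 to 1618 with a library left out. The 45 called for the difference became 12 with limma-voom, 169 with no filter, 13 with non-robust dispersions, 253 with the epithelial covariate and 25 to 140 with a library left out (140 without replicate 1 of clone 4 with DMSO); 42.2% of the 45 were higher in clone 5, and 55.4% with upper-quartile scaling. Apart from the fewer samples, the cause was not tested. Same-numbered libraries of 2 groups correlated at -0.66 to 0.17 in their deviations from group means, above 0.1 in 1 of 12 pairs, and 4 of 24 libraries were closest to their own number, so the numbers do not pair the libraries. With the replicate block 1083 genes were called for the clone 5 response, 715 for the clone 4 response, 43 for the difference, 8153 between clones with HyT36 and 8093 with DMSO, and no call of CHFR or RNF8 changed. Depth limits the CHFR values of clone 4, which rest on 53 reads in all.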

Other observations

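Several genes named above lie on chromosome X: BRCC3 and ZBTB33 of the lists, and NEXMIF among the genes most like CHFR. Of 494 tested genes that RefSeq places on chromosome X, 422 were higher and 27 lower in clone 5 than in clone 4 with HyT36 (median log2 difference 0.93), and 419 were higher and 30 lower with DMSO (median 0.91). That is 85.4% and 84.8% higher, against 27.0% and 27.3% of all tested genes in the same comparisons. On chromosome 12, which holds CHFR, 27.0% of 745 genes were higher with HyT36 and 26.7% with DMSO, and on chromosome 6, which holds RNF8, 22.9% and 22.2% of 722. A chromosome was found for 93.6% of the tested genes, and the pattern was noticed after the values were seen.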
